A study of Mus musculus with 4 samples.

Results

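The transcripts of 7 genes that write and remove DNA methylation were followed in sorted mouse thymocytes: the DNA methyltransferase genes Dnmt1, Dnmt3a and Dnmt3b, the methylcytosine dioxygenase genes Tet1, Tet2 and Tet3, and the thymine DNA glycosylase gene Tdg. They were picked by gene name, but with earlier results of these data known. All 7 were found among the 23282 genes used here, and all 7 had a mean of at least 1 FPKM (fragments scaled to transcript length and library depth), the level required for testing, which 10224 genes reached.

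DNA methyltransferases add a methyl group to cytosine, mostly in CpG dinucleotides: DNMT1 copies the pattern onto the new strand after replication, and DNMT3A and DNMT3B set new methylation. TET enzymes oxidise methylcytosine, and TDG cuts out the most oxidised forms so that base excision repair can restore an unmethylated cytosine. In T cell precursors these enzymes act while lineage genes are opened and alternative fates are shut off, and DNMT3A and TET2 are widely known as genes whose loss lets blood stem cells expand.

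The cells were DN3 thymocytes, the stage without CD4 and CD8 at which the T cell receptor beta locus is rearranged. They were sorted 16 weeks after irradiated mice had received fetal liver cells that were either wild type (WT) or Gata3(g/g), which the labels give as a hypomorph genotype of Gata3, a transcription factor gene on which early T cell development depends. All 4 samples are labelled C57BL/6, and each genotype had 2 libraries. The thymocytes therefore came from transferred donor cells in an irradiated host, and whether different animals supplied the 2 libraries of a genotype is not labelled, so that p-values measure only the spread between these samples, which may be technical. By their sequence identifiers, the replicate 1 libraries of both genotypes were sequenced together (run 1) and the replicate 2 libraries in a separate run (run 2).

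The libraries held 14331705 to 26901913 fragments assigned to genes, so that 3 fragments, the limit that a count of 0 allows, correspond to 0.112 to 0.209 CPM (counts scaled to library size). All 8 DN3 marker genes passed the level for testing, whereas 5 of 5 natural killer cell, 5 of 6 B cell, 4 of 5 mast cell and 5 of 6 stromal markers stayed below 1 FPKM in every library. Gata3 itself stood at 58.5 to 62.4 FPKM in WT and at 96.1 to 120 FPKM in those labelled Gata3(g/g) (0.83 ± 0.146, SE; edgeR with the run as a block, adjusted p = 0.00165), higher and not lower. Every direction given for the genotype therefore rests on the labels. The runs stood apart more than the genotypes. The summed FPKM of 5 erythroid markers was 0.853 to 2.33 in run 1 and 329 to 334 in run 2. Summed FPKM of 7 immediate-early genes, which respond quickly to handling and stimulation, was 463 to 660 in run 1 and 42.1 to 53.3 in run 2. The 4 CD4+CD8+ stage markers summed to 3.88 to 7.0 FPKM in WT and 10.5 to 11.3 FPKM in Gata3(g/g). With the block, the marker genes Il2ra (0.98 ± 0.181), Cd8a (1.28 ± 0.286), Cd8b1 (1.77 ± 0.302) and the myeloid marker Lyz2 (1.27 ± 0.198) were called higher in Gata3(g/g). The other tested myeloid markers went the other way without being called: Fcer1g (−0.74 ± 0.416) and Cd68 (−0.43 ± 0.321). The immediate-early gene Jun (0.76 ± 0.182) was also called higher in Gata3(g/g), while Fosb (−0.66), Junb (−1.06) and Egr1 (−0.73) were called lower. The part of these differences in the values of the methylation genes was not tested, and in bulk samples fewer cells of a type and less RNA per cell cannot be told apart.

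The 7 genes spanned a wide range of levels. Dnmt1 ranked first in all 4 libraries and Dnmt3a second, with Tet1 sixth and Tdg last. The FPKM ranges of Dnmt1 and Dnmt3a did not overlap, with Dnmt1 5.99 and 6.85 times as high as Dnmt3a in the WT libraries and 4.98 and 6.52 times in the Gata3(g/g) libraries. Between them and Tet1 lay Tet3, Dnmt3b and Tet2, whose order changed from library to library: Tet3 was above Dnmt3b in 3 of 4 libraries and Dnmt3b above Tet2 in 2 of 4. Every neighbouring pair in the order below Dnmt1 overlapped in its FPKM range. Among all tested genes, 7.25% had a higher mean FPKM than Dnmt1, 40.6% than Dnmt3a, 57.9% than Tet3 and 90.2% than Tdg.

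**Figure D1:**
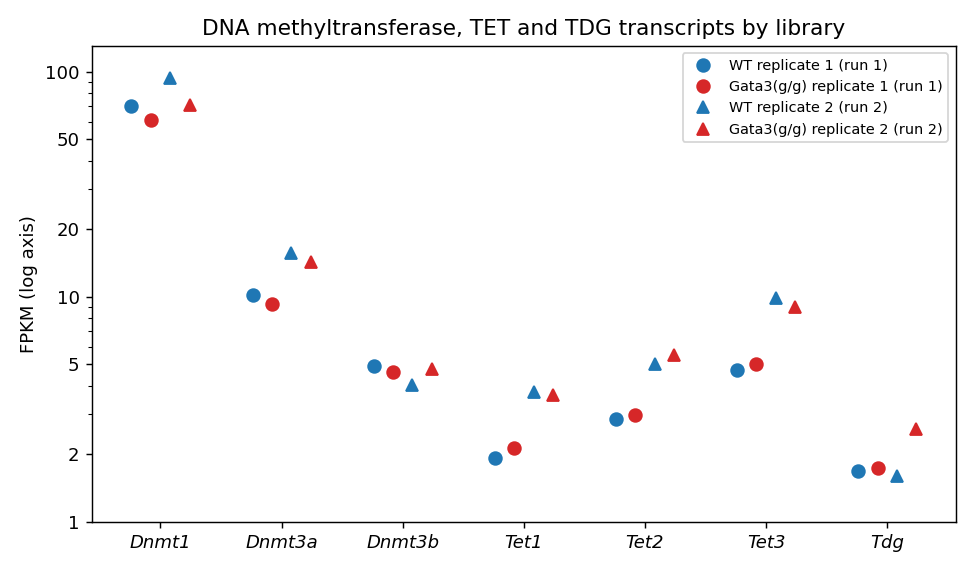
FPKM of each of the 7 genes (log axis) in each of the 4 libraries, with the genotype as colour and the sequencing run as marker shape. For Dnmt1, Dnmt3a, Tet1, Tet2 and Tet3 both triangles (run 2) lie above both circles (run 1), while the genotypes overlap for every gene but Tdg.

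None of the 7 genes was called between the genotypes by the test across all genes, which does not show that they were unchanged. In the model with genotype alone, edgeR called 0 of 7 members, against a background of 0% of the 10224 tested genes (393 of all genes and 0 of the 7 at an unadjusted p under 0.05). With the sequencing run as a block, it again called 0 of 7, against a background of 6.9% (705 genes), and again 0 of the 7 had an unadjusted p under 0.05. The median absolute log2 fold change with the block was 0.11 for the 7 genes and 0.18 for all tested genes. FPKM values of the genotypes did not overlap for 1 of the 7 genes (Tdg), against 29% of all tested genes. DESeq2 called 0 of 7 (background 0.861%), also with the block (background 4.08%), and 0 of 7 had a q-value under 0.05 in the authors' deposited table, which called 456 of 11123 genes. Fold changes are given for Gata3(g/g) over WT from the edgeR model with the block, with the standard error (SE) and 95% interval, and without it all 7 adjusted p-values were 0.9997.

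Dnmt1, the maintenance methyltransferase gene (chromosome 9, 20907206 to 20959888 in mm10, minus strand), measured 70.0 FPKM in WT replicate 1 and 93.5 in WT replicate 2, and 60.7 and 71.1 in Gata3(g/g) replicates 1 and 2, from 13118 to 16627 fragments. Within each run the Gata3(g/g) library was the lower one, but WT replicate 1 lay just under Gata3(g/g) replicate 2, so the genotypes overlapped. Means were 81.7 ± 16.7 FPKM in WT and 65.9 ± 7.35 FPKM in Gata3(g/g) (SD, n = 2). The log2 fold change was −0.30 ± 0.159 (SE; edgeR adjusted p = 0.311), and its interval, from −0.63 to 0.04, corresponds to changes from −35.5% to 2.87%. The difference was −0.19 in run 1 and −0.40 in run 2. Of all tested genes, 28.7% had a larger absolute change. Dnmt1 is known as a gene of cycling cells, and of 21 S-phase genes (replication licensing, nucleotide supply and clamp genes such as Pcna and Mcm7) 0 were called between genotypes, with a median log2 fold change of −0.05. Uhrf1, which brings DNMT1 to newly replicated CpG sites, stood at 96.4 and 96.4 FPKM in WT and 93.4 and 92.9 FPKM in Gata3(g/g). The ratio of Uhrf1 to Dnmt1 in FPKM was 1.38 and 1.03 in WT and 1.54 and 1.31 in Gata3(g/g), lowest where Dnmt1 was highest and highest where Dnmt1 was lowest, with Uhrf1 between 92.9 and 96.4 FPKM throughout.

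Dnmt3a (chromosome 12, 3806980 to 3914443, plus strand), a de novo methyltransferase gene, measured 10.2 and 15.6 FPKM in WT and 9.32 and 14.3 FPKM in Gata3(g/g), from 2963 to 3967 fragments. The order followed the run: both run 2 libraries were above both run 1 libraries, and within each run Gata3(g/g) was slightly lower. Its log2 fold change was −0.20 ± 0.122 (SE; edgeR adjusted p = 0.380), with an interval from −0.46 to 0.06. It was −0.11 in run 1 and −0.29 in run 2.

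Dnmt3b (chromosome 2, 153649454 to 153687730, plus strand), the other de novo enzyme gene, measured 4.92 and 4.03 FPKM in WT and 4.65 and 4.77 FPKM in Gata3(g/g), from 434 to 962 fragments. The Gata3(g/g) values lay inside the WT range. The log2 fold change was 0.08 ± 0.146 (SE; edgeR adjusted p = 0.815), with opposite signs in run 1 (−0.07) and run 2 (0.23), and an interval from −0.23 to 0.39. Of the 50-base windows of its longest annotated transcript, 11.5% also occur in Dnmt3c, a near copy not analysed here, so that part of its count is uncertain. The ratio of Dnmt3a to Dnmt3b in FPKM was 2.08 and 2.01 in the run 1 libraries (WT, Gata3(g/g)) and 3.87 and 3.0 in the run 2 libraries.

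The 3 TET genes kept almost fixed proportions to each other. Tet3 made up 49.6% to 52.9% of their summed FPKM, Tet2 26.9% to 30.4% and Tet1 20% to 20.9% over the 4 libraries. Their sum was 9.51 and 18.6 FPKM in WT and 10.1 and 18.2 FPKM in Gata3(g/g), so it separated the runs and not the genotypes. Summed DNMT transcripts stood at 85.1 and 113 FPKM in WT and 74.7 and 90.2 FPKM in Gata3(g/g). The DNMT sum was 8.95 and 6.08 times the TET sum in WT, and 7.37 and 4.95 times in Gata3(g/g).

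Tet1 (chromosome 10, 62804570 to 62880014, minus strand) measured 1.92 and 3.75 FPKM in WT and 2.12 and 3.65 FPKM in Gata3(g/g), from 1057 to 1801 fragments. The difference between genotypes was 0.16 in run 1 and −0.05 in run 2, and the log2 fold change was 0.05 ± 0.135 (SE; edgeR adjusted p = 0.867; interval −0.23 to 0.34). For Tet2 (chromosome 3, 133463677 to 133544390, minus strand) the values were 2.85 and 5.01 FPKM in WT and 2.98 and 5.53 FPKM in Gata3(g/g), from 1015 to 1767 fragments. Gata3(g/g) was the higher library in both runs, by 0.08 and 0.14, and the log2 fold change was 0.11 ± 0.135 (SE; edgeR adjusted p = 0.707; interval −0.18 to 0.39). Tet3 (chromosome 6, 83362374 to 83441678, minus strand), the most abundant of the family, measured 4.74 and 9.84 FPKM in WT and 5.03 and 9.02 FPKM in Gata3(g/g), from 2011 to 3436 fragments. Its genotype difference had opposite signs in the runs (0.10 and −0.13), and at −0.01 ± 0.125 (SE; edgeR adjusted p = 0.963) it was the smallest of the 7. The Tet3 interval, −0.28 to 0.25, corresponds to changes from −17.6% to 18.9%.

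**Figure D2:**
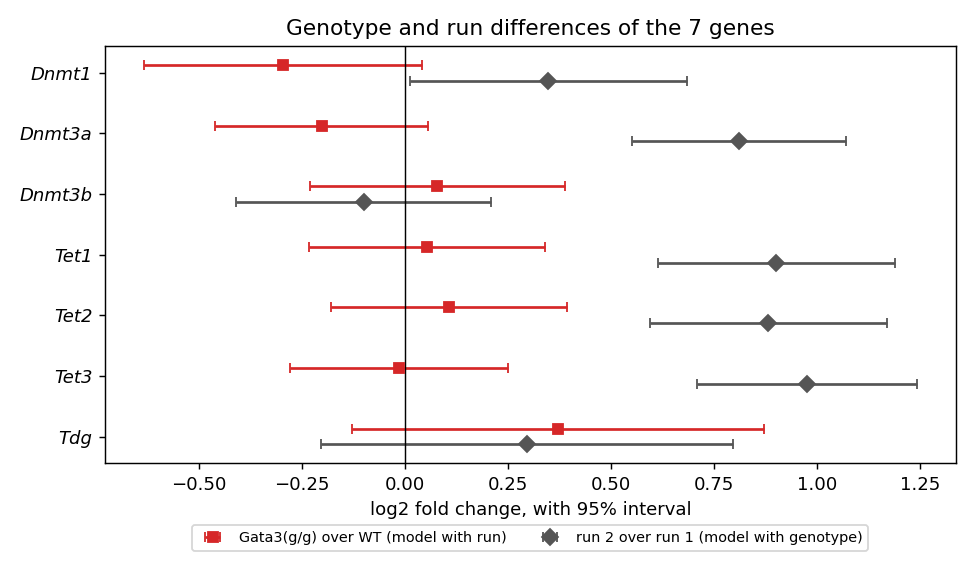
Log2 fold changes of the 7 genes with 95% intervals (horizontal axis), for Gata3(g/g) over WT in the edgeR model with the sequencing run (squares) and for run 2 over run 1 in the model with the genotype (diamonds). All 7 genotype intervals span 0, while those for the run lie above 0 for Dnmt3a, Tet1, Tet2 and Tet3 and, just above 0, for Dnmt1.

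Between the sequencing runs, 4 of the 7 genes were called higher in run 2 (Dnmt3a, Tet1, Tet2 and Tet3) and 0 lower, against a background of 17.5% called higher and 17.3% called lower among all tested genes (34.8% in all). The genotype was kept as a term in this model, and the comparison was added after the data were seen. Tet3 rose by 0.98 ± 0.126 (SE; edgeR adjusted p = 3.02e-05), or 1.97-fold (interval 1.63 to 2.37). Tet1 rose by 0.90 ± 0.136 (edgeR adjusted p = 0.000122), Tet2 by 0.88 ± 0.136 (edgeR adjusted p = 0.000142) and Dnmt3a by 0.81 ± 0.123 (edgeR adjusted p = 0.000125). Of all tested genes, 4.0% had a higher run 2 over run 1 change than Tet3 and 6.51% a higher one than Dnmt3a. The rise was seen in both genotypes: for Tet3 it was 1.09 in WT and 0.86 in Gata3(g/g), and for Dnmt3a 0.90 and 0.72. This is a description only, since the calls rest on the same libraries. Run differences had the same sign in both genotypes for 5 of the 7 genes, against 79.2% of all tested genes. Dnmt1 was 0.35 ± 0.159 higher without passing (edgeR adjusted p = 0.0995), while of the 21 S-phase genes 10 fell in run 2 and 0 rose, with a median of −0.27. Dnmt3b was not called (−0.10 ± 0.146; edgeR adjusted p = 0.632), and its differences had opposite signs in WT (−0.25) and Gata3(g/g) (0.05). FPKM values of the runs did not overlap for 5 of the 7 genes, against 60.7% of all tested genes.

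The distances between the courses of the genes over the libraries were computed as a description, since choosing genes by their run difference already fixes much of a shared course. After centring each gene's log2 CPM, the root mean square distance over the 4 libraries was 0.05 between Tet1 and Tet3, 0.07 between Tet1 and Tet2, 0.11 between Tet2 and Tet3 and 0.13, 0.14 and 0.17 between Dnmt3a and Tet3, Tet1 and Tet2. Dnmt3b, which did not share the run difference, was 0.49 from Dnmt3a and 0.56 from Tet3. What differed between the runs besides the sequencing is not given in the labels, so handling, cells and library preparation cannot be told apart.

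The 4 genes also have long transcripts. Dividing a gene's scaled fragments by its FPKM gives a weight that grows with the length of its transcripts. The tested genes with a weight were divided into 5 groups of nearly equal size by this weight. In the group with the largest weights (2025 genes), which holds Dnmt1, Dnmt3a, Tet1, Tet2 and Tet3, the median log2 difference between runs was 0.21 and 36.2% were called higher in run 2. In the next group down, which holds Dnmt3b and Tdg, the median was −0.02 and 15.5% were called higher. The 3 groups of shorter transcripts showed no steady trend, with medians of −0.10, −0.12 and 0.0018 and 13%, 9.23% and 14.1% called higher from longer to shorter. The upper quartile of the longest group was 0.52, and Dnmt3a, Tet1, Tet2 and Tet3 lay above it. Across 10126 genes Pearson's r between the log2 weight and the run difference was 0.06 and Spearman's rho was 0.16, a description only, since all genes share the same libraries. The part of length in the rise of the 4 genes was not tested.

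**Figure D3:**
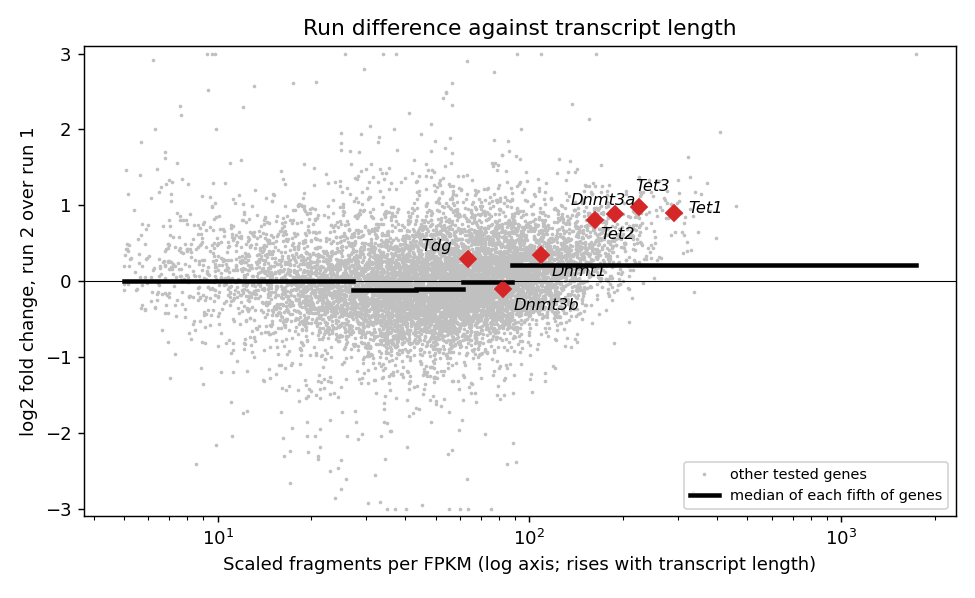
Log2 fold change of run 2 over run 1 (vertical axis, values beyond 3 drawn at 3) against scaled fragments per FPKM (log axis, larger for longer transcripts) for tested genes (grey), with the 7 genes as red diamonds and the median of each of 5 groups by length as a black line. Tet1, Tet2, Tet3 and Dnmt3a lie between 0.81 and 0.98, above the line of the longest group at 0.21.

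Because these 4 genes were all called higher in run 2, annotated transcript starts of each are printed here, 250 bases before to 50 after, 5′ to 3′ on the gene's strand, with CpG in capitals (RefSeq, GRCm38.p6, the assembly of mm10). All 7 genes had an entry, with 11 start windows in all. The first start of Dnmt3a (chr12:3806730-3807029, plus strand) holds 46 CpG and an internal start farther into the gene (chr12:3891494-3891793, plus strand) holds 18. Another Dnmt3a window (chr12:3806910-3807209, 47 CpG) overlaps the first and is not printed. Tet1 (chr10:62887275-62887574, minus strand) holds 17, Tet2 (chr3:133544341-133544640, minus strand) 57 and Tet3 (chr6:83441629-83441928, minus strand) 22. The Tet1 start lies 7310 bases upstream of the edge of the authors' Tet1 locus, so its window is outside the locus given above. The median over all 32851 such windows was 7 CpG, so each of these starts is richer in CpG than the typical one. This did not set the 4 genes apart from the members not called between runs. Dnmt3b held 30 CpG and Tdg 26, and the Dnmt1 starts held 33, 12 and 2. Because the windows come from annotation, they do not show which start was used in these cells.
Dnmt3a first start: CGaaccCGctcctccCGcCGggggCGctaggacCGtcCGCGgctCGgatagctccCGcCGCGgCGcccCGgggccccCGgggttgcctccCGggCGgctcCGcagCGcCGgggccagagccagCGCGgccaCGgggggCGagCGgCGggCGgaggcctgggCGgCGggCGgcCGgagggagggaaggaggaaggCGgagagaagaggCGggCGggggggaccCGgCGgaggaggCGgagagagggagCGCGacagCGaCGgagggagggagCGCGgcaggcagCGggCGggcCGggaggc
Dnmt3a internal start: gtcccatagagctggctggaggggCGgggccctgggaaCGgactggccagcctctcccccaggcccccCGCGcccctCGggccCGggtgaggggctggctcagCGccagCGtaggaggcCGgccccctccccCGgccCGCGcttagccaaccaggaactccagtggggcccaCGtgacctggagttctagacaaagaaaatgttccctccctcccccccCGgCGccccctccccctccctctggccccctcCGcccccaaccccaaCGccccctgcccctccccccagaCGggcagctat
Tet1 start: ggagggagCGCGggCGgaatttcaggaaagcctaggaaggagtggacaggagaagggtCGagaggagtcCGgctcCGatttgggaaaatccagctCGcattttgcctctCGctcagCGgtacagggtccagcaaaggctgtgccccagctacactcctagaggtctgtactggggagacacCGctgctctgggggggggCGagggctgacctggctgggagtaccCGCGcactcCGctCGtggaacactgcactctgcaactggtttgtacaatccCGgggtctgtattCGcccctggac
Tet2 start: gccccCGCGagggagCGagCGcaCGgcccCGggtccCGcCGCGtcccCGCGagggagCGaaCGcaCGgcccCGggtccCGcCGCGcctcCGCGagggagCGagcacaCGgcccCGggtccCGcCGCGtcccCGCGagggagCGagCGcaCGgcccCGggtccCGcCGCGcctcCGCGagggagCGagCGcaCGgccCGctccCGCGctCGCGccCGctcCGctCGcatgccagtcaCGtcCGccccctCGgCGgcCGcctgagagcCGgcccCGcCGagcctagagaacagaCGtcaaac
Tet3 start: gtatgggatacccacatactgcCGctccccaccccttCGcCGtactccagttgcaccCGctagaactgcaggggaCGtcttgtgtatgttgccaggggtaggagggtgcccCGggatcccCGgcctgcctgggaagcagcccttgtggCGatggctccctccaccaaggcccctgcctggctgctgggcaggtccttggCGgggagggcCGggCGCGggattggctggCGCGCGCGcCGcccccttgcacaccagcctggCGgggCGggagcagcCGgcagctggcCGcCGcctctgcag
Forms of the site that GATA factors bind were searched on both strands: the word AGATAA, its variant AGATAG, and the same beginning with T, which is TGATAA or else TGATAG. Of the 11 windows of the 7 genes, 1 held such a word, the most upstream of 3 Dnmt1 starts (chr9:20959839-20960138, minus strand, 2 CpG), against 29.8% of all windows. Bases G and C made up 51.3% of the matching window and 57% to 82.3% of the other windows of the 7 genes. Their median over all windows was 52.7%. The searched words are mostly A and T, and the part of base composition in this comparison was not tested. A match is a description of letters and not of binding.

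For Dnmt3a the choice of measure mattered. In both genotypes its FPKM was 1.53 times as high in run 2 as in run 1, whereas its scaled fragments were 1.81 times as high in WT and 1.63 times as high in Gata3(g/g). The scaled fragments per FPKM, which the authors' transcript estimates set, were 153, 181, 153 and 163 in WT replicates 1 and 2 and Gata3(g/g) replicates 1 and 2. They rose by 18.4% from run 1 to run 2 in WT, and 1.11% of 10126 genes moved as far in that pair of libraries. In Gata3(g/g) they rose by 6.30%, with 4.6% of genes moving as far. Between genotypes the weight was 10.1% lower in Gata3(g/g) in run 2, with 0.988% of genes moving as far, and differed by 0.160% in run 1. The other 6 genes moved by less than 1% in each of these pairs. The weight depends on how a gene's fragments are divided among its transcripts of unequal length. Dnmt3a is known to make a long form and a shorter one, DNMT3A2, from an internal promoter, and the GENCODE M21 annotation lists full-size transcripts of 9685, 8737 and 5424 bases. Values per transcript were not analysed here, and the shift rests on a single library per cell of the design, with no test.

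Tdg (chromosome 10, 82629838 to 82690650 in the authors' table, plus strand), the glycosylase gene of the last step, was the lowest of the 7 and the hardest to read. It measured 1.67 and 1.60 FPKM in WT and 1.74 and 2.59 FPKM in Gata3(g/g), from 134 to 280 fragments. The values of 3 libraries lay close together and Gata3(g/g) replicate 2 stood above them. The log2 fold change was 0.37 ± 0.236 (SE; edgeR adjusted p = 0.405; interval −0.13 to 0.87), made up of 0.07 in run 1 and 0.68 in run 2. Between runs it was not called (0.30 ± 0.236; edgeR adjusted p = 0.351).

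The Tdg fragments were shared out with a pseudogene. The authors' table gives Tdg, the pseudogene Gm9855 and Glt8d2 the same joint locus, while GENCODE M21 places Gm9855 elsewhere on chromosome 10, at 42054113 to 42055306. Of the 50-base windows of the longest Tdg transcript, 66.3% also occur in another gene, 47.4% in Tdg-ps and 25.4% in Gm9855, and Tdg-ps was not analysed here. Neither Tdg nor Gm9855 had whole fragment numbers, but their sums were within 0.002 of a whole number in all 4 libraries: 436 and 469 in WT and 431 and 554 in Gata3(g/g). Tdg received 46.4% and 28.5% of the sum in WT and 64.8% and 50.5% in Gata3(g/g). Gm9855 alone was lower in Gata3(g/g) by edgeR with the block (−0.84 ± 0.212; adjusted p = 0.0239), the opposite direction to Tdg, and without the block its adjusted p was 0.9997.

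Summed, the pair turned the direction of Tdg. The sum, tested after the data were seen, had a genotype log2 fold change of −0.27 ± 0.162 (SE; edgeR adjusted p = 0.362; interval −0.62 to 0.07), being −0.41 in run 1 and −0.14 in run 2. Between runs the sum was called higher in run 2 (0.81 ± 0.163; edgeR adjusted p = 0.00113), by 0.67 in WT and 0.95 in Gata3(g/g), where Tdg alone was not called. The CPM of the sum were 21.1 and 33.6 in WT and 15.8 and 30.5 in Gata3(g/g), with the runs apart and the genotypes overlapping.

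**Figure D4:**
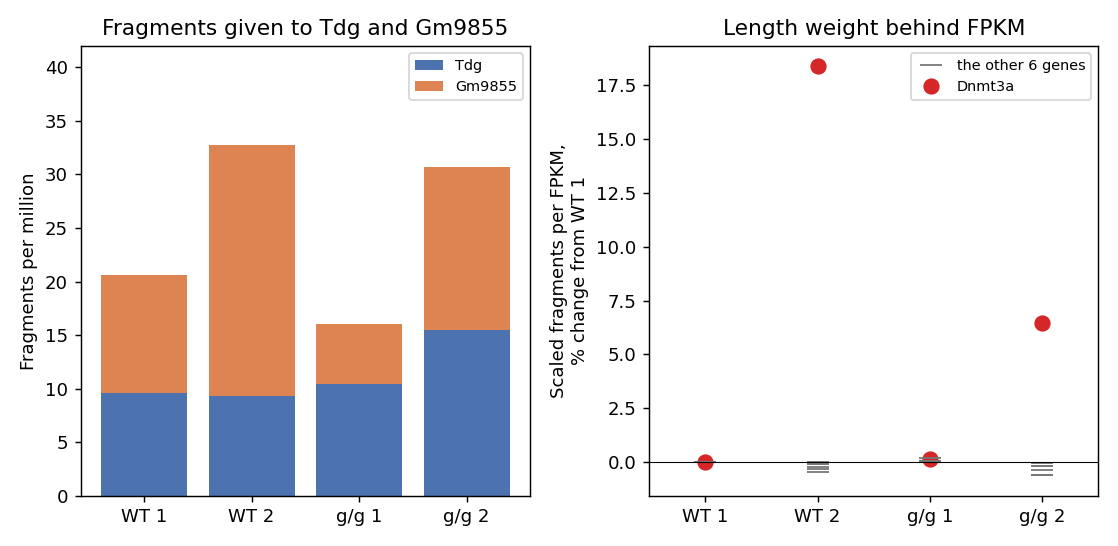
Left, fragments in CPM assigned to Tdg and to its pseudogene Gm9855 in each library, stacked so that the bar height is their sum. Right, scaled fragments per FPKM of Dnmt3a (red points) and of the other 6 genes (grey dashes) as percent change from WT replicate 1, showing Dnmt3a 18.4% higher in WT replicate 2 while the other 6 genes stay within 1%.

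The tested genes whose course over the 4 libraries was nearest to that of Tdg as deposited, the member with the largest change with the block, were Apip at a root mean square distance of 0.0188 in centred log2 CPM, Fam174a at 0.0281 and the microRNA gene Mir1190 at 0.0348. These were picked as the nearest of 10224 genes over only 4 libraries, so close courses come from the search itself. The Tdg course also rests on how fragments were split with Gm9855, and no link to Tdg was tested. Apip, a gene of the methionine salvage pathway, measured 9.50 and 9.16 FPKM in WT and 10.1 and 15.1 FPKM in Gata3(g/g). Mir1190 had 1 fragment in Gata3(g/g) replicate 2 and 0 in the other 3 libraries, so its nearness to Tdg rests on a single fragment.

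Among the other genes of the pathway, 2 passed between genotypes in edgeR with the block. Both were lower in Gata3(g/g) and came from the methyl donor list, and neither passed by DESeq2 or limma. That list was chosen with earlier results of these data known, and the supply of methyl groups was not measured. Of 9 tested methyl donor genes, 0 were higher and 2 lower, with a median log2 fold change of −0.31, against 3.9% called higher, 2.99% called lower and a median of 0.01 over all tested genes. Shmt1, the cytosolic serine hydroxymethyltransferase that loads one-carbon units onto folate, measured 36.0 and 26.2 FPKM in WT and 25.4 and 17.8 FPKM in Gata3(g/g). Its log2 fold change was −0.53 ± 0.129 (SE; edgeR with the block, adjusted p = 0.0188). Mthfd1, the folate enzyme that interconverts those units, measured 25.8 and 22.9 FPKM in WT and 18.3 and 16.6 FPKM in Gata3(g/g), with a log2 fold change of −0.48 ± 0.123 (SE; edgeR with the block, adjusted p = 0.0266). The Gata3(g/g) values of both genes lay below both WT values, though those of Shmt1 only narrowly, and without the block neither passed (edgeR adjusted p = 0.9997). With the block, the adjusted p of Shmt1 was 0.0516 by DESeq2 and 0.191 by limma, and that of Mthfd1 was 0.0776 and 0.215. The related Shmt2 (−0.31 ± 0.126) and the methionine adenosyltransferase gene Mat2a (−0.40 ± 0.189) did not pass.

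In the remaining lists of the pathway no gene passed in either direction. Of 12 partners of the methyltransferases 0 were called (median 0.00), among them Uhrf1 (−0.05 ± 0.150) and the corepressor gene Trim28 (−0.25 ± 0.155). Of 10 readers of methylated DNA 0 were called (median 0.00), with the most abundant, Mbd2, at 0.33 ± 0.123 (edgeR with the block, adjusted p = 0.124) and Mbd3 at −0.14 ± 0.123. Of 8 genes around the TET enzymes, such as those that supply or remove their metabolites, 0 were called (median 0.12), with Idh2 at −0.10 ± 0.133 and Ddb1 at −0.21 ± 0.125. Of 12 base excision genes 0 were called (median −0.11), with Parp1 at −0.16 ± 0.126 and Polb at 0.14 ± 0.137. Of 6 genes whose proteins bind unmethylated CpG through a CXXC domain 0 were called, with Cxxc1 at −0.29 ± 0.128 and Mll1 at 0.22 ± 0.168. Of 15 germline genes that DNA methylation is known to silence in somatic cells, 14 stayed below 1 FPKM in all 4 libraries. Brdt, at 0.96 to 1.62 FPKM, was the 1 that could be tested and was not called. Low RNA was common, as 10224 of all 23282 genes reached a mean of 1 FPKM, and DNA methylation itself was not measured.

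**Figure D5:**
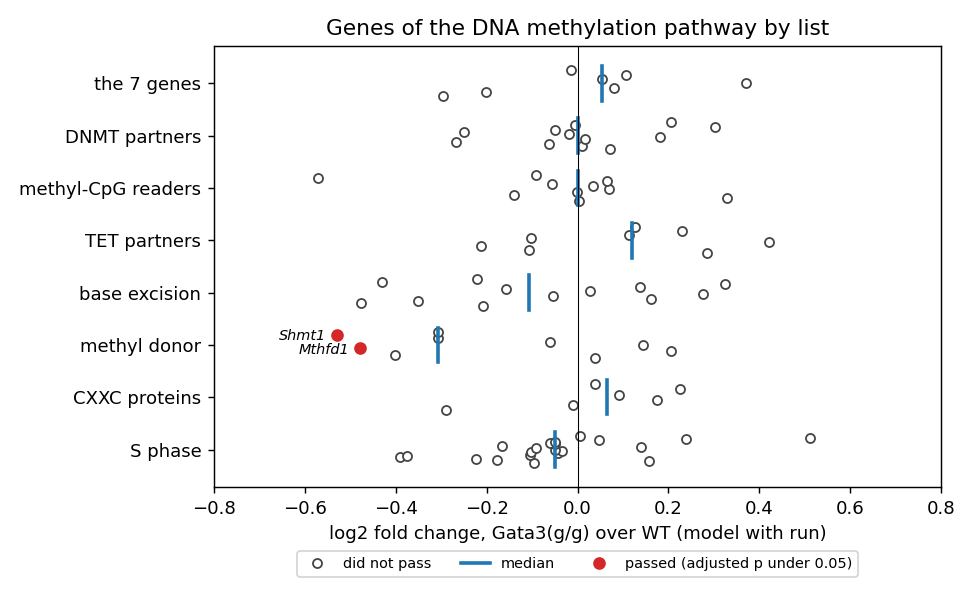
Log2 fold change of Gata3(g/g) over WT in the edgeR model with the run (horizontal axis) for each tested gene of 8 lists, with list medians as blue bars and genes with an adjusted p under 0.05 filled red. The 2 red points are Shmt1 (−0.53) and Mthfd1 (−0.48) in the methyl donor list, and the 7 methylation enzymes lie between −0.30 and 0.37.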

How the data were processed

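RNA was sequenced in 4 DN3 thymocyte samples (2 WT, 2 Gata3(g/g)). TopHat2 2.0.8b, Bowtie2 2.1.0, Cuffdiff 2.1.1 and the mm10 genome are named in the submitters' processing notes. As the sources used here do not give the annotation or the use of strand, reads of antisense or overlapping genes cannot be told apart. The deposited values of a gene in a library are, per the file headers, an estimated count of fragments, an FPKM value and a scaled fragment signal (the count after the authors' normalization between libraries). Their deposited comparison table gives log2 fold changes with p-values and q-values, and a test score not used here. Gene positions are those of that table. Of 23285 genes, 3 were left out because Cuffdiff had found their loci too deep, and 5 values marked as failed were kept.

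Between 97.7% and 98.9% of estimated counts lay within 0.01 of a whole number. They were rounded and tested with edgeR 4.0.16 (R 4.3.3): quasi-likelihood F test, trimmed mean of M values scaling (factors 0.983 to 1.02), mean FPKM of at least 1, two-sided, Benjamini-Hochberg adjustment over all 10224 genes at 0.05. Genotype was the only term of the main model (2 residual degrees of freedom). The replicate number marks the sequencing run in the labels, so a fit with the replicate block (1 residual degree of freedom, leaning on the spread pooled over genes) is printed beside it. Across the 10224 genes, the run differences of the 2 genotypes had a Pearson correlation of 0.754. The SE is the unshrunk log2 fold change divided by the square root of F. For differences within a run, a prior count of 2 was added before log2 CPM were taken. DESeq2 1.42.0 and limma 3.58.1 (log2(FPKM + 1)) were alternatives. The fits were tested on simulated data.

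The members and gene lists were chosen with earlier results of these data known. All members are named with every library's value. From each other list the genes called with or without the block are named, or, where there were none, the 2 with the highest mean FPKM. For the member with the largest change, the 3 genes nearest in pattern are named. Other genes were named after their values were seen. Values of 1 gene of the lists are not reported here. The comparison of runs and the sum of Tdg and Gm9855 were added after the data were seen. The floor of 3 fragments covers counting error only.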

Additional observations from a re-analysis of the deposited data

How the results depend on the processing

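The count of members called between genotypes was 0 of 7 under every alternative run, except that only 3 members could be tested when the mean FPKM had to reach 5 (0 of 3). The count of all genes called was 0 without the replicate block and 705 with it. It was 88 by DESeq2 and 417 by DESeq2 with the block, 5 and 18 by limma without and with the block (pseudocount 1), and 5 with a pseudocount of 0.1. With the block it was 674 without scaling, 348 when the mean FPKM had to reach 5, and 717 with Tdg and Gm9855 summed, and without the block or a filter it was 58. In edgeR the replicate block changed the calls of Shmt1, Mthfd1, Jun, Junb, Fosb and Egr1 among the genes followed under every alternative, and of no member. With the block, DESeq2 did not call Shmt1 (adjusted p = 0.0516), Mthfd1 (0.0776) or Jun (0.601), limma called none of the 6 (adjusted p from 0.125 to 0.315), and Mthfd1 missed without scaling (edgeR adjusted p = 0.0501). Fits without 1 library, in which the genotypes hold unequal shares of the runs and the lone sample is assumed to vary like the other genotype, called 1 to 11 genes. Log2 fold changes then ranged from −0.63 to 0.29 for Dnmt3a, −0.045 to 0.20 for Dnmt3b, −0.43 to 0.61 for Tet1, −0.41 to 0.60 for Tet2 and −0.54 to 0.59 for Tet3, each turning sign, and from −0.53 to −0.06 for Dnmt1 and 0.08 to 0.67 for Tdg, which did not. Immediate-early genes turned too: Fosb −6.52 to 5.29, Jun −1.01 to 2.69, Junb −3.16 to 1.21 and Egr1 −1.92 to 0.45. With the block, Tet3 turned to 0.034 without scaling and to 0.0014 when the mean FPKM had to reach 5, and the sum of Tdg and Gm9855 turned Tdg to −0.24 (−0.27 with the block).

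Between runs, 3560 genes were called with the genotype as a term, 751 without it, 2263 by DESeq2 and 1451 by limma. Of the members, 4 were called, with 5 when Tdg and Gm9855 were summed and 2 (of 3 tested) when the mean FPKM had to reach 5. Leaving out 1 library, which also drops the genotype term, called 82 genes and 0 members without WT replicate 1, 215 genes and 1 member without WT replicate 2, 208 genes and 0 members without Gata3(g/g) replicate 1, and 1536 genes and 4 members without Gata3(g/g) replicate 2. Dnmt3b then ranged from −0.22 to 0.017 and Tdg from −0.060 to 0.63, while Dnmt3a (0.67 to 0.95), Tet1 (0.83 to 0.98), Tet2 (0.81 to 0.95) and Tet3 (0.91 to 1.04) kept their direction. With 2 libraries a genotype, the intervals of the 7 genes set what size of change could be seen. Counting error was smallest for Dnmt1 and largest for Tdg, but it did not set the order of the intervals. With the block, the genotype SE of Dnmt1 (0.159) was exceeded only by that of Tdg (0.236). Those of the other members ran from 0.122 for Dnmt3a to 0.146 for Dnmt3b.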

Other observations

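Between the runs, the lists around the 7 genes moved in both directions, with the genotype as a term in edgeR. Of 10 readers of methylated DNA, 5 were called higher in run 2 and 0 lower (background 17.5% and 17.3%). The zinc-finger readers Zbtb38 and Zbtb4 were 1.66 ± 0.187 and 1.29 ± 0.197 higher, and Mbd5 and Mbd1 were 0.90 and 0.67 higher. Of 12 base excision genes, 1 was called higher and 5 lower. Apex1, the main abasic-site endonuclease, stood at 19.4 and 15.4 FPKM in run 1 (WT, Gata3(g/g)) and 2.38 and 2.33 FPKM in run 2, a difference of −2.87 ± 0.188. The glycosylase gene Neil1 (−2.31 ± 0.309) and the repair polymerase gene Polb (−1.02 ± 0.138) were lower too, while Neil3 was 1.08 ± 0.150 higher. Mll1 was 1.17 ± 0.170 higher and Nsd1, the gene of a histone methyltransferase linked to DNMT3A targeting, 0.98 ± 0.131 higher. These genes were named after their values were seen.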
